A study of Homo sapiens with 9 samples.

Results

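The genes described here are 9 members of the NRF2 pathway and of glutathione synthesis, measured in HepG2 cells given recombinant SPARC. They are NFE2L2, KEAP1, GCLC, GCLM, NQO1, HMOX1, TXNRD1, SRXN1 and OSGIN1. They were picked by name through the gene symbols of the array annotation, and each of the 9 had 1 transcript cluster, the probe group that reports a gene on this array. They are 9 of 17687 genes with a symbol. HepG2 is an established human liver cancer cell line, and SPARC is a secreted matricellular glycoprotein. The 9 arrays comprised 3 from untreated HepG2 cells, 3 from HepG2 cells treated with SPARC at 200 ng/ml and 3 from cells treated at 800 ng/ml, all collected at 24 h. The labels name no vehicle, serum condition or separate culture for the replicates, so the p-values rest on a spread among samples that may be purely technical. Values are log2 signals, which were deposited without detection calls. A bulk signal cannot tell fewer cells from less RNA per cell.

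NRF2, the protein of NFE2L2, is a transcription factor that switches on genes against oxidants and electrophiles. In unstressed cells KEAP1 holds NRF2 and hands it to a CUL3 ubiquitin ligase for destruction, and oxidants that modify cysteines of KEAP1 let NRF2 accumulate. This control acts mainly on the protein, so the NFE2L2 transcript need not follow NRF2 activity, whereas the transcripts of its targets are a usual readout. In the liver the pathway governs glutathione supply, quinone and haem breakdown and the thioredoxin system. NRF2 binds, together with a small MAF protein, to antioxidant response elements in the promoters or enhancers of its targets.

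The promoters of the members were searched for the core letters of that element, TGACNNNGC or TGAGNNNGC, on both strands, in windows of 300 bases from 250 before to 50 after each annotated start. RefSeq promoter sequences of build GRCh38.p14 were matched to 8 of the 9 genes with 11 windows, since several genes have more than 1 start. At least 1 match lay in 7 of the 11 windows, which belong to 6 genes. Among all 35116 promoter windows of that length, 13.3% held TGACNNNGC, 18.3% held TGAGNNNGC and 29.1% held either. The 4 stretches below are shown because the genes differ in role, a sensor, a glutathione enzyme, a thiol reductase and a further target, and their core letters can be compared. One match per gene is shown, where KEAP1 had 3, GCLM 2, TXNRD1 4 and OSGIN1 1. Each stretch is written 5′ to 3′ on the strand of the gene, with the core in capitals, and in all 4 the core is read on the opposite strand. Other matches of KEAP1 and TXNRD1 are read on the strand of the gene, so the shared orientation and the likeness of the letters follow from which matches were picked.
KEAP1: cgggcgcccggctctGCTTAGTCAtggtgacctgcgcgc
GCLM: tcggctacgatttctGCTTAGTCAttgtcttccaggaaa
TXNRD1: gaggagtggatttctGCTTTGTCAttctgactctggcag
OSGIN1: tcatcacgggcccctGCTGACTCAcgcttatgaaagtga
The KEAP1 stretch is chr19:10502779-10502817 on the minus strand, with the core from −31 to −23 relative to the start. The GCLM stretch is chr1:93909441-93909479 on the minus strand, with the core from −34 to −26. Read on the opposite strand, KEAP1 and GCLM share the core TGACTAAGC, and TXNRD1 has TGACAAAGC. The TXNRD1 stretch, at its downstream start, is chr12:104286915-104286953 on the plus strand, with the core from −102 to −94. The OSGIN1 stretch is chr16:83953126-83953164 on the plus strand, with the core TGAGTCAGC from −99 to −91. The windows of GCLC and SRXN1 held no match, which says only that these letters are not in those windows. No binding of NRF2 was measured, and a match is a description of the letters.

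One array, untreated replicate 2, was unlike the rest. Over all transcript clusters it correlated with the other 8 at 0.891 to 0.920, against 0.979 to 0.991 among those 8. Its signals had an SD of 1.67, where the other arrays had 1.914 to 2.003. Every comparison with untreated cells is therefore given with all 9 arrays and without that array. The hepatocyte products ALB and APOA1 had signals of 12.14 to 12.46 and 9.90 to 10.48 over the 9 arrays, and AFP, the fetal albumin relative that liver tumours make, had 8.16 to 9.19. The mean log2 signal of 8 measured hepatocyte markers was 10.18 in untreated replicate 2 and 10.32 to 10.50 in the other arrays. Markers of other cell types had higher means in that array than in the others: 6.63 against 5.67 to 5.94 for blood and Kupffer cells, 5.75 against 4.93 to 5.21 for fibroblasts and 5.03 against 4.10 to 4.43 for endothelium. The log2 of the summed signal was lower there for blood and Kupffer markers, 11.62 against 11.72 to 11.86. It was higher for fibroblast markers, 9.38 against 8.86 to 9.17, and for endothelium markers, 8.29 against 6.99 to 7.37. The median over dim genes was also raised in that array, as given below, though not every dim gene was higher there. The part of these markers in the members' values was not tested. A second departure concerned 800 ng/ml replicates 2 and 3, where the mean log2 signal of 9 measured neural and glial markers was 5.87 in each, against 4.25 in 800 ng/ml replicate 1. It was 4.13 to 4.37 at 200 ng/ml and 4.12 to 4.63 in untreated cells. The log2 of the summed signal of these markers ran from 7.65 to 9.58 at 800 ng/ml, from 7.58 to 7.69 at 200 ng/ml and from 7.52 to 8.02 in untreated cells. What part such transcripts had in the members' values was not tested, and replicates are therefore named one by one below.

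**Figure D1:**
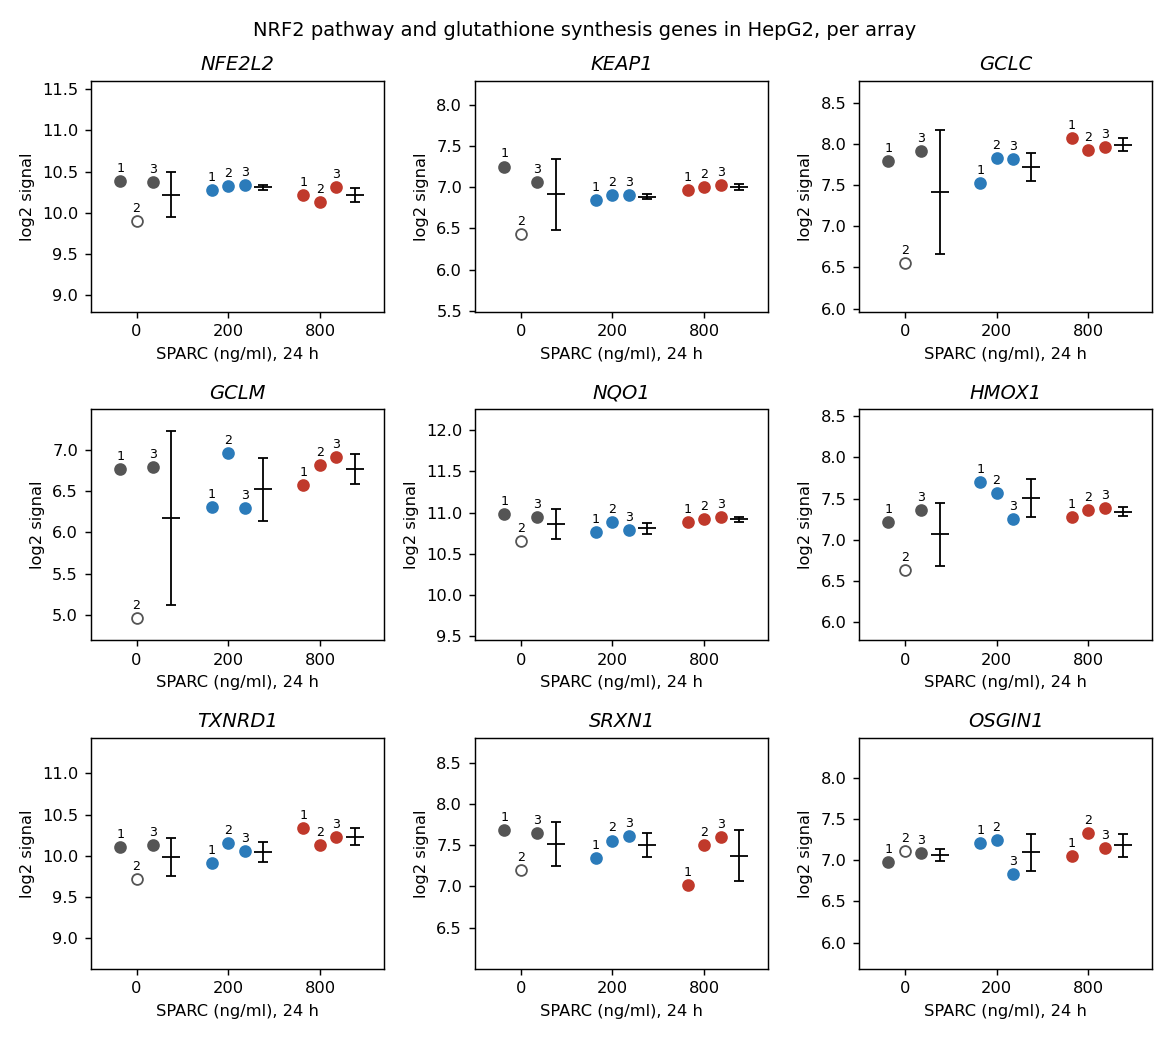
Log2 signal of the 9 genes in each array, by SPARC dose in ng/ml at 24 h. Points are arrays numbered by replicate, the open point is untreated replicate 2, and the bar beside each group is the mean with the SD of its 3 arrays. Apart from untreated replicate 2, the arrays of each gene lie within 0.23 to 0.67 log2 units of each other.

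The sensor pair comes first. NFE2L2 had log2 signals of 10.38, 9.90 and 10.37 in untreated replicates 1, 2 and 3, 10.27, 10.32 and 10.33 at 200 ng/ml and 10.21, 10.14 and 10.31 at 800 ng/ml. With untreated replicate 2 set aside, both doses lay below untreated replicates 1 and 3 without overlap, but by little. Of all genes 17.8% did so at 200 ng/ml and 11.8% at 800 ng/ml, each dose taken alone. The log2 difference was −0.16 ± 0.11 (SE) at 800 ng/ml and −0.07 ± 0.11 at 200 ng/ml (limma, adjusted p = 0.971 and 0.835). With all 9 arrays the differences were 0.0003 and 0.09, and neither passed. A change of NFE2L2 larger than 1.06-fold up or below 0.757-fold at 800 ng/ml lay outside the 95% interval without untreated replicate 2. With all 9 arrays that interval was wider, a ratio of 0.749 to 1.34.

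KEAP1, the brake on NRF2, had 7.25, 6.43 and 7.06 in untreated cells, 6.85, 6.90 and 6.91 at 200 ng/ml and 6.96, 7.01 and 7.03 at 800 ng/ml. The 3 arrays at 200 ng/ml were the lowest of the 8 other arrays, those at 800 ng/ml came next, and untreated replicates 1 and 3 were highest. Of all genes 17.8% were lower without overlap at 200 ng/ml and 11.8% at 800 ng/ml than in these untreated replicates. Between the doses 12.1% were higher at 800 ng/ml without overlap. The share with the whole order was not counted. Between 200 ng/ml and untreated cells the log2 difference was −0.27 ± 0.11 without untreated replicate 2, a ratio of 0.828 with an interval of 0.696 to 0.985. Its unadjusted p was 0.0365 and its adjusted p 0.416 (limma), so it did not pass. With all 9 arrays the difference was −0.03 ± 0.22. At 800 ng/ml it was −0.16 ± 0.11 without untreated replicate 2 and 0.08 ± 0.22 with it. When arrays were weighted by their fit, KEAP1 at 200 ng/ml did pass, at −0.34 (limma with array weights, adjusted p = 0.0277), with most of the untreated weight on replicate 1. Leaving out untreated replicate 1 or 3 instead turned the difference to 0.14 or 0.04, so the order of the groups rests on those 2 arrays.

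Glutathione is made from cysteine, glutamate and glycine, and its rate-limiting enzyme is a pair of subunits, the catalytic GCLC and the modifier GCLM. GCLC had 7.79, 6.55 and 7.91 in untreated cells, 7.52, 7.82 and 7.81 at 200 ng/ml and 8.07, 7.93 and 7.96 at 800 ng/ml. All 3 arrays at 800 ng/ml were above the 6 others. With all 9 arrays the log2 difference between 800 ng/ml and untreated cells was 0.57 ± 0.31, a ratio of 1.48 with an interval of 0.923 to 2.38 (limma, adjusted p = 0.659). Without untreated replicate 2 it was 0.14 ± 0.13, a ratio of 1.10 with an interval of 0.895 to 1.35 (adjusted p = 0.984). Most of the larger ratio therefore came with that array. The dose comparison does not use the untreated means: GCLC was 0.27 ± 0.12 log2 units higher at 800 than at 200 ng/ml in the fit without untreated replicate 2, a ratio of 1.20 with an interval of 1.002 to 1.45. Its unadjusted p was 0.0481 and its adjusted p 0.326, and with all 9 arrays the same difference had an adjusted p of 0.999. Leaving out 200 ng/ml replicate 1, where GCLC was lowest among treated arrays, brought it to 0.17 in the fit with all untreated arrays. The highest GCLC signal at 800 ng/ml was in replicate 1, where the neural and glial markers were low.

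GCLM, which raises the affinity of the enzyme for its substrate, had 6.77, 4.96 and 6.79 in untreated cells, 6.31, 6.97 and 6.30 at 200 ng/ml and 6.57, 6.82 and 6.92 at 800 ng/ml. Replicates 1 and 3 at 200 ng/ml were the lowest of the 8 other arrays and replicate 2 at that dose the highest, so this group spanned the whole range. The log2 difference from untreated cells at 800 ng/ml was 0.60 ± 0.42 with all 9 arrays and −0.01 ± 0.21 without untreated replicate 2, and at 200 ng/ml it was 0.35 ± 0.42 and −0.26 ± 0.21. None passed, the smallest adjusted p being 0.658 (limma). The interval at 800 ng/ml was a ratio of 0.719 to 1.37 without untreated replicate 2 and 0.795 to 2.88 with all 9 arrays. How large a rise these arrays could have missed therefore depends on whether that array is kept.

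Among the classical target enzymes, NQO1 reduces quinones and was nearly level. It had 10.99, 10.65 and 10.95 in untreated cells, 10.76, 10.89 and 10.79 at 200 ng/ml and 10.89, 10.92 and 10.95 at 800 ng/ml. Its range over the 8 arrays was 0.23, the narrowest of the members. The log2 differences from untreated cells were −0.16 ± 0.11 at 200 ng/ml and −0.05 ± 0.11 at 800 ng/ml without untreated replicate 2, and −0.05 ± 0.18 and 0.05 ± 0.18 with all 9 arrays.

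HMOX1 breaks haem down to biliverdin, iron and carbon monoxide, and is held off by the repressor BACH1 besides being driven by NRF2. It had 7.21, 6.63 and 7.36 in untreated cells, 7.70, 7.57 and 7.26 at 200 ng/ml and 7.28, 7.36 and 7.39 at 800 ng/ml. Replicates 1 and 2 at 200 ng/ml were above all other arrays and replicate 3 of that dose lay among the untreated ones, so the groups overlapped. At 200 ng/ml HMOX1 had the smallest unadjusted p among the members when all arrays were used, 0.0744 (limma). Its log2 difference was 0.44 ± 0.22, with an interval of −0.05 to 0.93. The adjusted p was 0.966, as for GCLC and GCLM (limma). Without untreated replicate 2 the difference was 0.22 ± 0.15. At 800 ng/ml it was 0.28 ± 0.22 and 0.06 ± 0.15 in the same fits. HMOX1 was the only member that lay above untreated cells by 0.2 or more at 200 ng/ml in both fits.

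TXNRD1, the cytosolic thioredoxin reductase, had 10.11, 9.72 and 10.13 in untreated cells, 9.91, 10.15 and 10.06 at 200 ng/ml and 10.34, 10.13 and 10.22 at 800 ng/ml. Replicate 1 was the lowest of the 8 arrays at 200 ng/ml and the highest at 800 ng/ml, as it was for GCLC. The log2 difference from untreated cells at 800 ng/ml was 0.24 ± 0.19 with all 9 arrays and 0.11 ± 0.12 without untreated replicate 2, and between the doses it was 0.19 ± 0.11 without that array (adjusted p = 0.425).

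SRXN1 restores overoxidised peroxiredoxins. It had 7.68, 7.20 and 7.65 in untreated cells, 7.34, 7.56 and 7.61 at 200 ng/ml and 7.02, 7.50 and 7.60 at 800 ng/ml. Every treated array was below untreated replicates 1 and 3, and 800 ng/ml replicate 1 was lower than all other arrays. The log2 difference at 800 ng/ml was −0.29 ± 0.18 without untreated replicate 2 and −0.14 ± 0.22 with all 9 arrays (adjusted p = 0.971 and 0.766). Without 800 ng/ml replicate 1, and with all 3 untreated arrays, it was 0.039.

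OSGIN1, a growth inhibitor induced by oxidative stress, was the only member that untreated replicate 2 did not place below untreated replicates 1 and 3. It had 6.98, 7.12 and 7.09 in untreated cells, 7.21, 7.25 and 6.83 at 200 ng/ml and 7.05, 7.33 and 7.15 at 800 ng/ml. The groups overlapped. Its log2 difference was 0.12 ± 0.19 at 800 ng/ml and 0.03 ± 0.19 at 200 ng/ml with all 9 arrays, and 0.14 ± 0.15 and 0.06 ± 0.15 without untreated replicate 2.

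**Figure D2:**
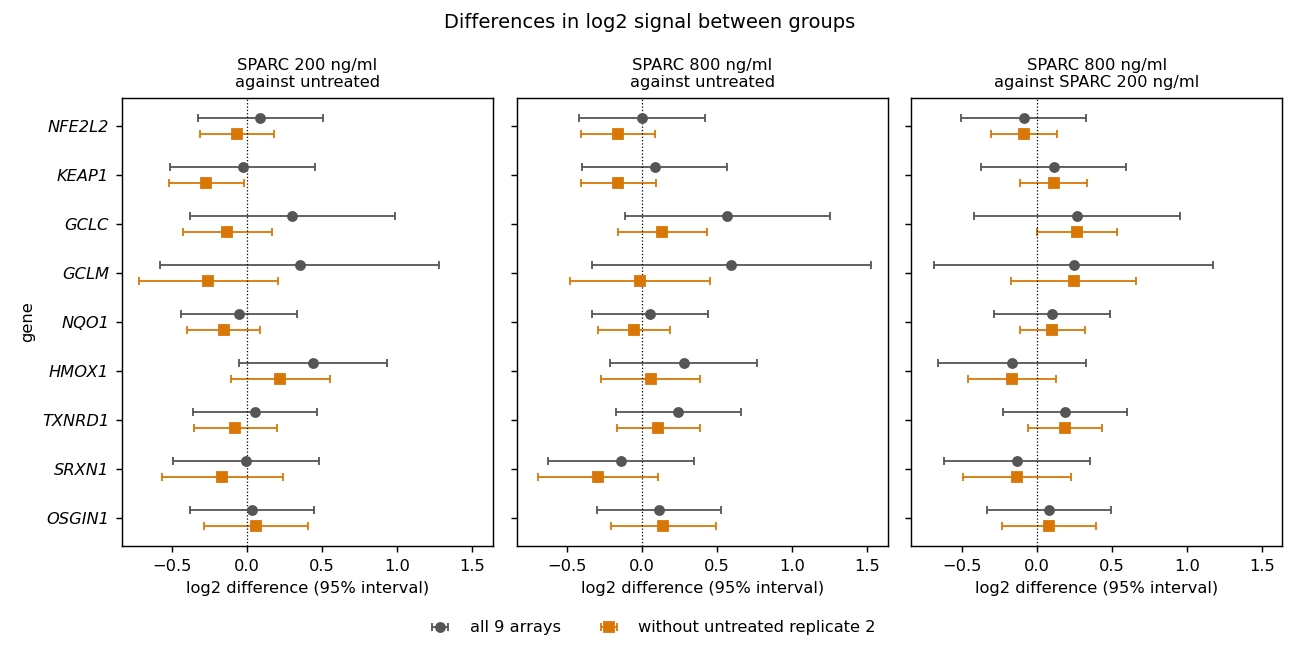
Log2 difference of each gene in the 3 comparisons, with 95% intervals from the moderated fit. Grey circles use all 9 arrays and orange squares leave out untreated replicate 2. The intervals of KEAP1 at 200 ng/ml and of GCLC between the doses, both without that array, are the ones that miss 0, and neither gene passed after adjustment over all genes.

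Read across the pathway, cells given 200 ng/ml SPARC had 0 of 9 members called against untreated cells at an adjusted p under 0.05 over all genes, where the background was 0% of 17687 genes (limma). At an unadjusted p under 0.05 there were 0 members with all 9 arrays, against 1.78% of all genes. Without untreated replicate 2 it was 1 member, KEAP1, against 11.3% of all genes. With all 9 arrays 6 of 9 members had a positive difference, as did 54.1% of all genes, and 0 members lay clear of untreated cells, where 3.92% of all genes were higher and 3.06% lower without overlap, 6.98% together. The median log2 difference of the members was 0.05 with all 9 arrays and −0.13 without untreated replicate 2, beside 0.03 and −0.02 over all genes. After quantile normalization of all 9 arrays the members' median turned to −0.07, with 3 of 9 higher. The brighter 50% of genes, 8843 in number and holding all 9 members, had a median of 0.14 with all 9 arrays. Without untreated replicate 2 there were 2 members with a positive difference, HMOX1 and OSGIN1, where 47.2% of all genes were positive. In that fit NFE2L2, KEAP1, NQO1 and SRXN1 lay below untreated cells without overlap, 4 of 9 members, as did 17.8% of all genes. No member lay above them without overlap, where 13.8% of all genes did, and 31.5% of genes did either. The arrays at 200 ng/ml differed among themselves. Replicate 1 was the lowest of the 8 arrays for 4 members, KEAP1, GCLC, NQO1 and TXNRD1, and it had the lowest SD of signals of these arrays, 1.914. The part of that spread in the result was not tested.

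At 800 ng/ml, 0 of 9 members were called against untreated cells in either fit, with a background of 0% in both (limma). At an unadjusted p under 0.05 there were 0 members in either fit, against 4.17% of all genes with all 9 arrays and 5.36% without untreated replicate 2. GCLC had the smallest unadjusted p among the members when all arrays were used, 0.0945 (limma). Its adjusted p of 0.659 was shared with GCLM, HMOX1 and TXNRD1. Positive differences were found for 8 of 9 members with all 9 arrays, where 54.6% of all genes were positive, and for 4 of 9 without untreated replicate 2, where 48.2% were. The median of the members was 0.12 and −0.01 in these fits, beside 0.04 and −0.006 over all genes. After quantile normalization of all 9 arrays it turned to −0.03, with 4 of 9 higher. The brighter 50% of genes had a median of 0.21 with all 9 arrays. Without untreated replicate 2, GCLC lay above untreated cells without overlap, as did 10.5% of all genes, and NFE2L2, KEAP1, NQO1 and SRXN1 lay below them, as did 11.8%. That is 5 of 9 members, beside 22.3% of all genes. When all 9 arrays were used GCLC was the only member whose arrays did not overlap, being higher, where 6.08% of all genes were higher and 5.14% lower without overlap, 11.2% together. In a fit that lacked 800 ng/ml replicate 1, 12 genes were called in place of 0, and 0 of them were members.

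Between 800 and 200 ng/ml 0 of 9 members were called, with a background of 0% in both fits (limma). GCLC alone had an unadjusted p under 0.05 in the fit without untreated replicate 2, against 15.3% of all genes, and none did with all 9 arrays, against 2.41%. GCLC and KEAP1 were higher at 800 ng/ml without overlap, 2 of 9 members beside 12.1% of all genes, and 0 members were lower without overlap, beside 9.72%, so 21.9% of all genes lay clear either way. The median difference was 0.10, beside 0.01 over all genes, and 6 of 9 members were higher at 800 ng/ml, beside 52.3% of all genes. These shares use only treated arrays and are the same with all 9 arrays and without untreated replicate 2. NFE2L2, HMOX1 and SRXN1 were lower, by −0.09, −0.16 and −0.13. The fit that lacked 800 ng/ml replicate 1 called 15 genes here, again with 0 members. The comparisons with untreated cells share the untreated arrays, and their values are set side by side only.

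The low signals of untreated replicate 2 were not alike among the members. Genes were placed in 10 equal bins by their mean over the other 8 arrays, and the deviation of that array from the mean of untreated replicates 1 and 3 was read within each bin. Bright genes were mostly low in it, with bin medians of −0.60 to −0.92 in the 4 brightest bins. Dim genes were mostly high, with bin medians up to 0.65. In the bin with that highest median the 10th percentile was −0.20. NFE2L2, TXNRD1 and NQO1, which fell in the brightest bin, deviated by −0.47, −0.40 and −0.31, where the bin median was −0.73 and 10% to 90% of its genes lay between −1.11 and −0.30. KEAP1, HMOX1 and SRXN1 deviated by −0.73, −0.66 and −0.47 in a bin with a median of −0.81. GCLC deviated by −1.30, with a bin median of −0.92. GCLM deviated by −1.82, a ratio of 0.282, beyond the 10th percentile of its bin, −1.45. OSGIN1 deviated by 0.08, in a bin where the 90th percentile was 0.19. The subunits of the glutathione enzyme had the largest deviations of the 9 when the bins are set aside. Measured from the bin medians, GCLM was still the furthest off, but OSGIN1 and NQO1 stood further off than GCLC. In all, 8 of 9 members lay within the 10th to 90th percentile of their bin. For comparison, untreated replicates 1 and 3 differed by 0.19 or less in each member.

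**Figure D3:**
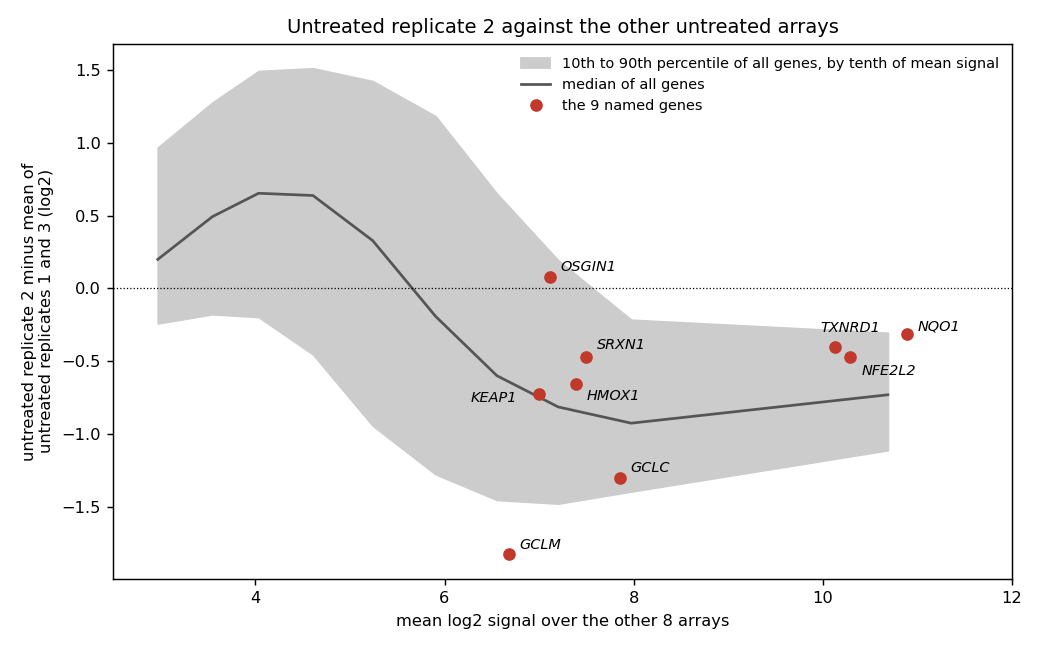
Deviation of untreated replicate 2 from the mean of untreated replicates 1 and 3, in log2 units, against the mean log2 signal over the other 8 arrays. The grey band spans the 10th to 90th percentile of all genes by bin of signal and the line is the bin median. GCLM at −1.82 lies below the band, and OSGIN1 at 0.08 is the only named gene above 0.

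Over the other 8 arrays the members did not all move together. The range of a member was 0.23 to 0.67 log2 units, with a median of 0.49 beside 0.58 over all genes, and 7 of 9 members had a range under that of the median gene. All 9 members were among the brighter 50% of genes, and ranges of genes with like signal were not compared. GCLM and SRXN1 had the widest ranges, 0.67 and 0.66, or 1.59-fold and 1.58-fold. Of 36 pairs of members 20 had a positive correlation over these 8 arrays, with a median r of 0.15. The highest were GCLC with TXNRD1 at 0.94, KEAP1 with NQO1 at 0.86 and GCLM with NQO1 at 0.82. The lowest was KEAP1 with HMOX1 at −0.66, while GCLC with HMOX1 was at −0.64. GCLC with GCLM, the subunits of 1 enzyme, was at 0.48. With untreated replicate 2 included, 31 of 36 pairs were positive, the median r was 0.62 and GCLC with GCLM reached 0.93. These correlations describe 8 or 9 arrays only, and no label says whether the arrays were processed together. Pairs of other genes were not counted, so these values have no background and show no trait particular to the members.

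The mean deviation of the 9 members from their 8-array means was 0.036 and 0.053 in untreated replicates 1 and 3, and −0.63 in replicate 2. It was −0.11, 0.065 and −0.10 in replicates 1, 2 and 3 at 200 ng/ml and −0.050, 0.033 and 0.076 at 800 ng/ml, so the groups overlapped. The 5 genes whose pattern over the 8 arrays was most like this mean were CDC27, with r = 0.97, SEC24C, PDPR and PUDP, each at 0.95, and TMTC2 at 0.94. They were the best of 17687 genes on 8 points, so high values are found by selection alone. With untreated replicate 2 included, r was 0.997 for CDC27, 0.991 for SEC24C, 0.993 for PDPR, 0.89 for PUDP and 0.58 for TMTC2.

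The wider redox network was read through 7 lists of other genes, 135 in all, of which 123 were measured. None of the 123 was called in any comparison, with or without untreated replicate 2 (limma). In the fit of all 9 arrays 0 of them had an unadjusted p under 0.05 at 200 ng/ml, beside 1.78% of all genes. For 800 ng/ml 2 higher genes and 1 lower gene had one, 2.44% of the lists beside 4.17% of all genes. At 200 ng/ml 94 of the 123 were higher than in untreated cells, with a median of 0.11, where 54.1% of all genes were higher and the brighter 50% of genes had a median of 0.14. At 800 ng/ml 98 were higher, with a median of 0.20, where 54.6% of all genes were higher and the brighter 50% had a median of 0.21. Without untreated replicate 2 the directions turned: 42 were higher and 81 lower at 200 ng/ml, with a median of −0.07, and 55 were higher and 68 lower at 800 ng/ml, with a median of −0.01. Of all genes 47.2% were higher at 200 ng/ml in that fit and 48.2% at 800 ng/ml, with medians of −0.02 and −0.006. The counts of single lists given below without that array have the same background. It includes dim genes, and no share over the brighter 50% of genes was taken for this fit. At an unadjusted p under 0.05 there were then 3 higher and 13 lower genes at 200 ng/ml, 13% of the lists beside 11.3% of all genes. At 800 ng/ml there were 0 higher and 2 lower, 1.63% beside 5.36%.

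**Figure D4:**
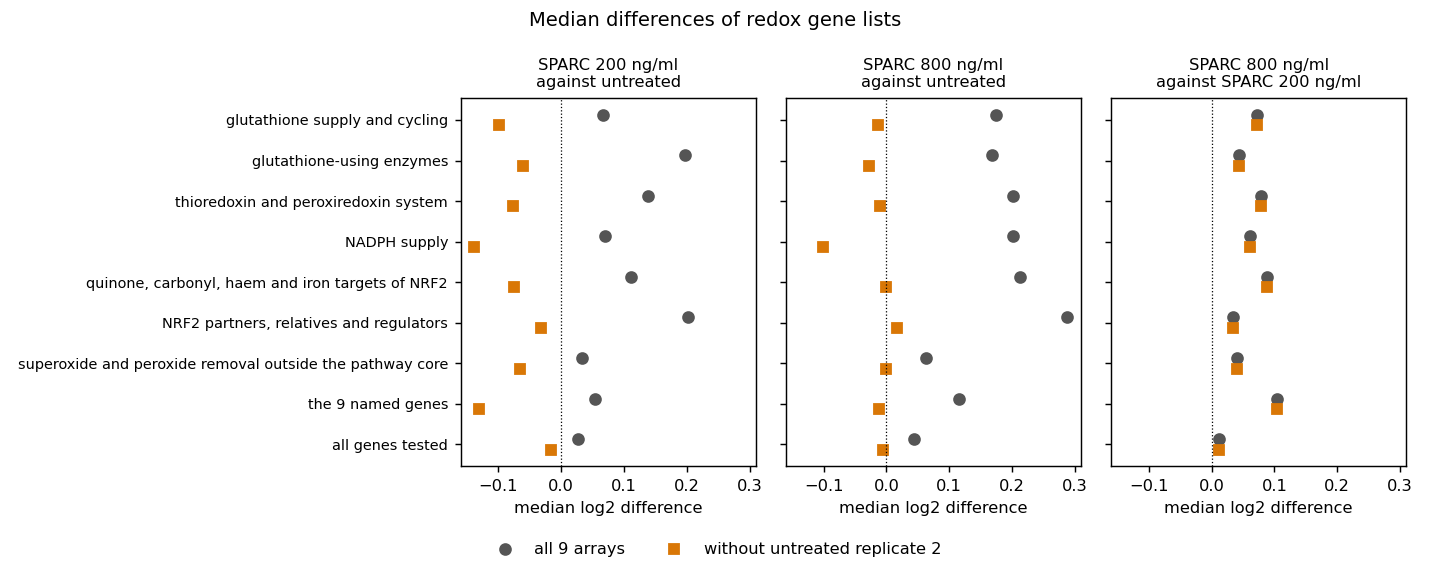
Median log2 difference of the 7 lists, of the 9 named genes and of all genes tested, in the 3 comparisons. Grey circles use all 9 arrays and orange squares leave out untreated replicate 2. The medians of all 7 lists against untreated cells are above 0 with all 9 arrays, and at 200 ng/ml all 7 are below 0 without untreated replicate 2.

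Among the partners of NRF2, MAFF, a small MAF protein, had the smallest p of the lists. It had 6.43, 6.86 and 6.54 in untreated cells, 7.04, 6.91 and 6.90 at 200 ng/ml and 6.52, 6.66 and 6.41 at 800 ng/ml. All 3 arrays at 200 ng/ml were above the 6 others, untreated replicate 2 being the nearest. With all 9 arrays 3.92% of all genes were higher at 200 ng/ml than in untreated cells without overlap. Between the doses 9.72% were lower at 800 ng/ml without overlap. The share of genes with both was not counted, and MAFF was picked for its small p. The log2 difference between 200 ng/ml and untreated cells was 0.46 ± 0.12 without untreated replicate 2 and 0.34 ± 0.19 with it (adjusted p = 0.310 and 0.966). Between 800 and 200 ng/ml it was −0.42 ± 0.11 without that array (adjusted p = 0.201). RBX1, the RING subunit of the ligase that KEAP1 works with, had −0.34 ± 0.13 at 200 ng/ml without untreated replicate 2 and 0.006 ± 0.27 with it. In this list of 19 measured genes 7 were higher and 12 lower at 200 ng/ml without that array, against 15 and 4 with it.

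The lists around glutathione gave no call either. Of 17 genes of glutathione supply and cycling, 6 were higher and 11 lower at 200 ng/ml without untreated replicate 2, and CHAC2, an enzyme that breaks glutathione down, had −0.36 ± 0.14 there and −0.03 ± 0.26 with all arrays. GGT7, of the gamma-glutamyl transferase family, had 0.59 ± 0.24 and 0.30 ± 0.30 in the same order. Of 27 glutathione-using enzymes 12 were higher and 15 lower at each dose without that array. GPX8, a peroxidase of the endoplasmic reticulum, had −0.44 ± 0.12 at 800 ng/ml without untreated replicate 2 and −0.38 ± 0.18 with it (adjusted p = 0.861 and 0.659), with signals of 3.05, 3.13 and 3.22 at 800 ng/ml against 3.58, 3.40 and 3.57 in untreated cells. These signals lie near the low end of the table, which starts at 2.19. GSTO2, an omega class transferase, had 0.48 ± 0.17 at 200 ng/ml without untreated replicate 2 and 0.39 ± 0.20 with it, also at low signals.

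In the thioredoxin and peroxiredoxin system 4 of 17 genes were higher and 13 lower at 200 ng/ml without untreated replicate 2. TXNIP, which binds and inhibits thioredoxin, had −0.41 ± 0.14 there and 0.14 ± 0.37 with all 9 arrays. PRDX4, the peroxiredoxin of the endoplasmic reticulum, had −0.16 ± 0.11 and 0.17 ± 0.26 in the same order. In the list of NADPH supply, which feeds both reductases, 2 of 9 genes were higher and 7 lower at each dose without that array. PGD of the pentose phosphate pathway had −0.35 ± 0.12 at 200 ng/ml and IDH1, the cytosolic isocitrate dehydrogenase, had −0.41 ± 0.17, against 0.12 ± 0.33 and −0.11 ± 0.26 with all arrays.

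Of 26 further quinone, carbonyl, haem and iron targets, 8 were higher and 18 lower at 200 ng/ml without untreated replicate 2, and 13 were higher and 13 lower at 800 ng/ml. ABCG2, an efflux transporter, had 6.63, 6.89 and 6.59 at 200 ng/ml against 7.14, 5.72 and 7.23 in untreated cells, a log2 difference of −0.48 ± 0.14 without untreated replicate 2 and 0.005 ± 0.34 with it. OSGIN2, the relative of OSGIN1, had 4.84, 4.96 and 5.38 at 200 ng/ml against 5.61, 4.26 and 5.83 in untreated cells, a difference of −0.66 ± 0.20 and −0.18 ± 0.36 in these fits. Both had an adjusted p of 0.323 without that array (limma). For superoxide and peroxide removal outside the core of the pathway, 3 of 8 genes were higher and 5 lower at 200 ng/ml without untreated replicate 2. PON2, a lactonase with antioxidant action, had −0.32 ± 0.11 in that fit and −0.27 ± 0.17 with all arrays, and CCS, the copper chaperone of SOD1, had −0.45 ± 0.22 and −0.42 ± 0.23.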

How the data were processed

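Gene expression was measured on 1-colour arrays, 1 per sample. The authors deposited log2 values, 1 per transcript cluster and array, a scale read from the range of 2.19 to 13.43 since no label states it. R 3.0 is named per the submitters' processing notes, and for the normalization, background correction and filters the sources used here give nothing. Of 21448 clusters 17709 had 1 symbol in the platform annotation and 3739 had none; the cluster with the highest mean per gene was kept. One linear model over the 3 groups (limma 3.58.1, R 4.3.3, lmFit and eBayes) gave all comparisons, with Benjamini-Hochberg adjustment over 17687 genes and calls at an adjusted p under 0.05. The fit was tested on simulated data with independent noise, whose spread was taken from the arrays other than untreated replicate 2. That test therefore does not cover an array that departs as untreated replicate 2 does. The members, lists and tests were chosen with earlier results of these data known. Besides the 9 members, the text names the 2 genes of each list with the smallest p against untreated cells without untreated replicate 2, and the 5 genes most like the members' mean. ALB, AFP and APOA1 are hepatocyte markers from the marker lists. The number of arrays limits the precision, and 0 pairs of arrays held the same values throughout. The extraction protocol names the 800 ng/ml dose and untreated cells, and the sample labels name both doses. The alternatives were other normalizations, filters, priors, weights, a replicate block and each array left out.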

Additional observations from a re-analysis of the deposited data

How the results depend on the processing

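With all 9 arrays 0 genes were called in each comparison. Array weights gave 1971 genes at 200 ng/ml and 732 at 800 ng/ml against untreated cells and 6 between the doses. KEAP1 at 200 ng/ml was then called, at −0.34 (adjusted p = 0.0277), and no other member was. That fit gave untreated replicate 1 a weight of 10.7 and untreated replicate 2 a weight of 0.0399. Leaving out each array gave 0 to 0, 0 to 12 and 0 to 15 called genes in the order of the comparisons, the highest without 800 ng/ml replicate 1. The members' median then ran from −0.13 to 0.14, from −0.01 to 0.25 and from 0.09 to 0.14. Median centring, leaving out the dimmest 50% of genes, the mean of all clusters, fits of 6 arrays, a trended robust prior and the replicate block turned no member and called no gene. Deviations from the group means correlated at −0.25 to 0.11 between same-numbered arrays of different groups and at −0.24 to 0.27 between differently numbered ones. Of the 9 arrays 1 correlated best with its own number. Untreated replicate 2 was part of the untreated mean and so weighs on all untreated deviations. These values therefore cannot settle whether the replicate numbers pair the arrays. The replicate block left 0 calls in each comparison. Among the values that changed sign relative to the fit of all 9 arrays, none was past the threshold; KEAP1 at 200 ng/ml, called under array weights, was positive without untreated replicate 1 or 3. Quantile normalization turned NFE2L2, TXNRD1 and OSGIN1 to −0.039, −0.070 and −0.078 at 200 ng/ml, and NFE2L2, KEAP1, NQO1 and OSGIN1 to −0.14, −0.025, −0.044 and −0.062 at 800 ng/ml. Array weights turned NFE2L2, GCLC, GCLM and TXNRD1 to −0.061, −0.023, −0.26 and −0.045 at 200 ng/ml, and NFE2L2, KEAP1 and NQO1 to −0.16, −0.23 and −0.064 at 800 ng/ml. The following settings were chosen after seeing the data. Quantile normalization without untreated replicate 2 gave NFE2L2, GCLC, GCLM and TXNRD1 −0.036, −0.051, −0.21 and −0.029 at 200 ng/ml, and NFE2L2, KEAP1, GCLM and NQO1 −0.14, −0.16, −0.0075 and −0.031 at 800 ng/ml. With replicate 1 as the only array at 800 ng/ml, assumed to vary like the other groups, NFE2L2 and OSGIN1 were at −0.0042 and −0.012 against untreated cells and OSGIN1 at −0.045 against 200 ng/ml, with 0 genes called. Leaving out each array at 200 ng/ml against untreated gave NFE2L2 −0.069 to 0.17, KEAP1 −0.27 to 0.14, GCLC −0.13 to 0.55, GCLM −0.26 to 0.66, NQO1 −0.16 to 0.011, TXNRD1 −0.079 to 0.12, SRXN1 −0.16 to 0.078 and OSGIN1 −0.042 to 0.16. At 800 ng/ml it gave NFE2L2 −0.16 to 0.082, KEAP1 −0.16 to 0.25, GCLM −0.011 to 0.91, NQO1 −0.053 to 0.11 and SRXN1 −0.29 to 0.039. Between the doses SRXN1 ran from −0.24 to 0.047 and OSGIN1 from −0.048 to 0.16. For these reversals the cause was not tested. The lack of detection calls limits what can be said of dim genes.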
